A study of Homo sapiens with 6 samples.

Results

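The NRF2 antioxidant response was examined through 9 genes: *NFE2L2*, *KEAP1*, *HMOX1*, *NQO1*, *GCLM*, *GCLC*, *TXNRD1*, *SRXN1* and *OSGIN1*. They were chosen by name, with earlier results of these data known, and all 9 were found among the 58302 gene identifiers counted. Expression was measured by bulk RNA sequencing of poly(A)-selected RNA from A375 cells, a human melanoma line, in 2 groups of 3 libraries. Control cells stably carried an empty vector, and the other cells stably overexpressed HMGB2, a DNA-bending chromatin protein. Both lines were made by lentiviral transduction, the replicates were separate pellets of cells, and the study's reporting form describes them as technical, so the p-values below measure the spread between pellets of 1 line and not between independent transductions.

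NRF2, the protein of *NFE2L2*, is a transcription factor that turns on genes for antioxidant and detoxifying enzymes. In unstressed cells KEAP1 binds NRF2 and hands it to a ubiquitin ligase for degradation. Oxidants and electrophiles modify KEAP1, after which NRF2 accumulates, pairs with a small MAF protein and binds antioxidant response elements near its targets. Because control of NRF2 acts largely on the protein, its activity is often read from the transcripts of its targets, among them *NQO1*, *TXNRD1*, *SRXN1*, *GCLM*, *GCLC*, *HMOX1* and *OSGIN1*. In tumour cells, this programme is known for its links to redox balance and drug tolerance. Gene positions below are those of GENCODE on GRCh38.

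The antioxidant response element is usually recognised by the core TGACNNNGC, where N is any base. This core was searched on both strands of promoter windows from RefSeq (GRCh38.p14), each of 300 bases, with 250 before the transcript start and 50 from it. It was present in 13.4% of all 35116 windows and in 19.6% of the 102 windows of the other pathway genes described further on. The table held 11 windows for 8 of the genes, some having more than 1 start, and the core was found in 4 of them (36.4%), belonging to *KEAP1*, *GCLM* and *TXNRD1*. *HMOX1* had no entry. The whole windows of *TXNRD1* (upstream start) and *NQO1* are shown because the expression results turn on these genes, with the core in capitals. A capital stretch that begins with GC is the core on the opposite strand.

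TXNRD1 (chr12:104215529-104215828, plus strand): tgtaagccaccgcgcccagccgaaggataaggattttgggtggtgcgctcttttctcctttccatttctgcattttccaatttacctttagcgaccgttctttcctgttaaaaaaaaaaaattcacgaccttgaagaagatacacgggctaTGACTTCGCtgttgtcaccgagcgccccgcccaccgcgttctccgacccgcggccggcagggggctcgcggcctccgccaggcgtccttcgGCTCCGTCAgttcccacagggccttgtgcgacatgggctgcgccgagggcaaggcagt
NQO1 (chr16:69726511-69726810, minus strand): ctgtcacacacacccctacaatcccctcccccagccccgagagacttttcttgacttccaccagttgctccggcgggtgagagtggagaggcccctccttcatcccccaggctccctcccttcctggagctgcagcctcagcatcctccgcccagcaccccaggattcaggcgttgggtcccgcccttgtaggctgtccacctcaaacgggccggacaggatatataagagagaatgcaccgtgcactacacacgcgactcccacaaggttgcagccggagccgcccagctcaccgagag

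The next stretches show each of the other matches in these genes with the bases around it. *GCLM* and the downstream start of *KEAP1* held the same 9 letters on the opposite strand.

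KEAP1 (chr19:10502768-10502851, minus strand): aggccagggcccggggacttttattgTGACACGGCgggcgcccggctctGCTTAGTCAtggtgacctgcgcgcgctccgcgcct
GCLM (chr1:93909430-93909490, minus strand): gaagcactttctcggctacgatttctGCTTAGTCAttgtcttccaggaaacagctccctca
TXNRD1, downstream start (chr12:104286904-104286964, plus strand): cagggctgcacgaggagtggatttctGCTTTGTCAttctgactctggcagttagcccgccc

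The core was not found in the windows of *NFE2L2*, *NQO1*, *GCLC*, *SRXN1* and *OSGIN1*. A match is a run of letters and not a binding site shown by experiment, and elements outside these windows were not searched.

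Between 45925053 and 56755212 reads per library were assigned to genes. *HMGB2* (ENSG00000164104, chr4:173331376-173334432, minus strand) was used to check the labels, with normalised read counts of 7250, 7729 and 7562 in the control libraries and 15095, 16848 and 14609 in the overexpressing libraries. The groups did not overlap, and the log2 fold change was 1.05 ± 0.10 (SE, adjusted p = 4.4e-22 by DESeq2). Of the defining markers of pigment cells, *MITF* and *S100B* were well counted, *TYRP1* was low, and *MLANA*, *TYR* and *DCT* were near 0. *SOX10* was listed at 0 and *PMEL* was low in the column of counts used, although the stranded columns held 253416 and 10158 reads for them, of which 3.37% were kept for *PMEL*, so their levels cannot be read from this column. The 8 pigment cell markers summed to 4877 to 5096 in controls and 5302 to 5624 with HMGB2, and 4 fibroblast markers to 2751 to 4837 and 4238 to 5891. Of the 4 fibroblast markers, 2 had log2 fold changes above 0 and 2 below. *DCN* was lower, at 160, 144 and 137 in controls and 99.0, 90.6 and 122 with HMGB2. *PTPRC* of leukocytes was at 0. The part of these differences in the results was not tested. Empty vector 3 stood apart from the other controls, with a chi-square of its counts per degree of freedom of 73.4 and 81.7 against empty vector 1 and 2, where these differed from each other by 13.6. For overexpression 3 the values were 23.0 and 35.5, against 16.7 between overexpression 1 and 2. The keratinocyte marker *KRT5* had counts of 5.05, 11.5 and 279 in controls and 249.8, 199.9 and 289 with HMGB2, whereas the summed counts of the 4 keratinocyte markers spanned 4583 to 4956 and 4486 to 5076, with *KRT1* at 0. Results that turn on empty vector 3 are therefore given with and without it, and the part of the *KRT5* difference in them was not tested.

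Transcript levels of the 9 genes covered a wide range in these cells. Levels are compared between genes in TPM, that is, counts divided by the length of the canonical transcript and scaled to a common total in each library. *NQO1*, a quinone reductase, was the most abundant, with a mean of 360 TPM and a range of 313 to 397 over the 6 libraries. *TXNRD1*, the cytosolic thioredoxin reductase, followed at 141 TPM (124 to 159). The regulators were next, *KEAP1* at 79.3 TPM (73.1 to 86.3) and *NFE2L2* at 55.6 TPM (45.3 to 65.3). The other targets were far lower.

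*GCLC*, the catalytic subunit of the enzyme that starts glutathione synthesis, stood at 14.2 TPM (13.4 to 15.9). *HMOX1*, the inducible haem oxygenase, and *GCLM*, the modifier subunit of the glutathione enzyme, averaged 8.29 and 7.91 TPM. *SRXN1*, which repairs over-oxidised peroxiredoxins, and *OSGIN1*, an oxidative stress-induced growth inhibitor, averaged 2.77 and 2.65 TPM. Of the 50-base words of *SRXN1*, 90.6% also belong to an overlapping gene on the same strand, so its level and place in the order are uncertain. Neighbours in this order did not overlap in range over the 6 libraries, except *HMOX1* with *GCLM* and *SRXN1* with *OSGIN1*. For *NFE2L2*, *GCLC* and *NQO1*, 85.3%, 87.4% and 93.9% of the reads in the stranded columns were kept in the column of counts used. Which of the overlapping genes the other reads came from was not tested.

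**Figure D1:**
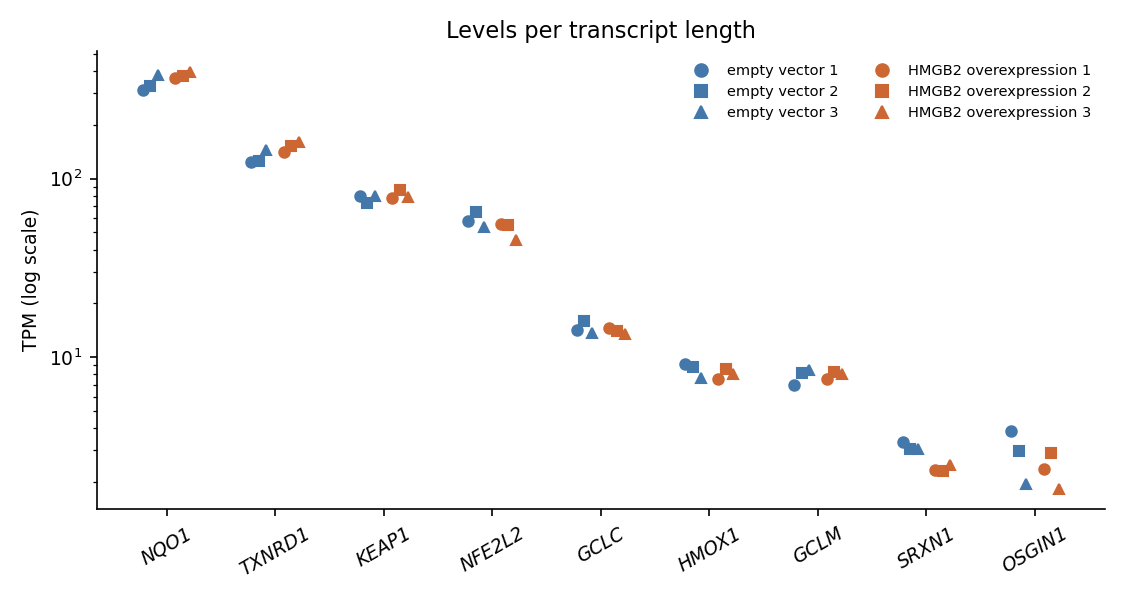
Level of each of the 9 genes in each library, in TPM on a log axis, ordered by the mean over the 6 libraries. Circles, squares and triangles mark replicates 1, 2 and 3, with empty vector in blue and HMGB2 overexpression in orange. *NQO1* lies between 313 and 397 TPM in every library, and *SRXN1* and *OSGIN1* lie between 1.84 and 3.85 TPM. The level of *SRXN1* is uncertain because its sequence is shared with an overlapping gene.

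The comparison of HMGB2-overexpressing cells with empty vector controls asked whether this programme differed between them. None of the 9 genes was called at an adjusted p under 0.05 by DESeq2 (0 higher and 0 lower), against 4.94% of the 18836 genes tested. At an unadjusted p under 0.05 there was 1, *SRXN1*, against 14.3% of all genes. The quasi-likelihood test of edgeR likewise called 0, against 2.81% of all genes. At the unadjusted threshold it gave 1, against 2771 of all 16754 genes it tested. Of the 9 log2 fold changes, 4 were above 0 and 5 below, with a median of −0.02, against 0.0027 for all genes tested. In bulk RNA, a change in the number of cells that express a gene and a change in RNA per cell cannot be told apart.

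**Figure D2:**
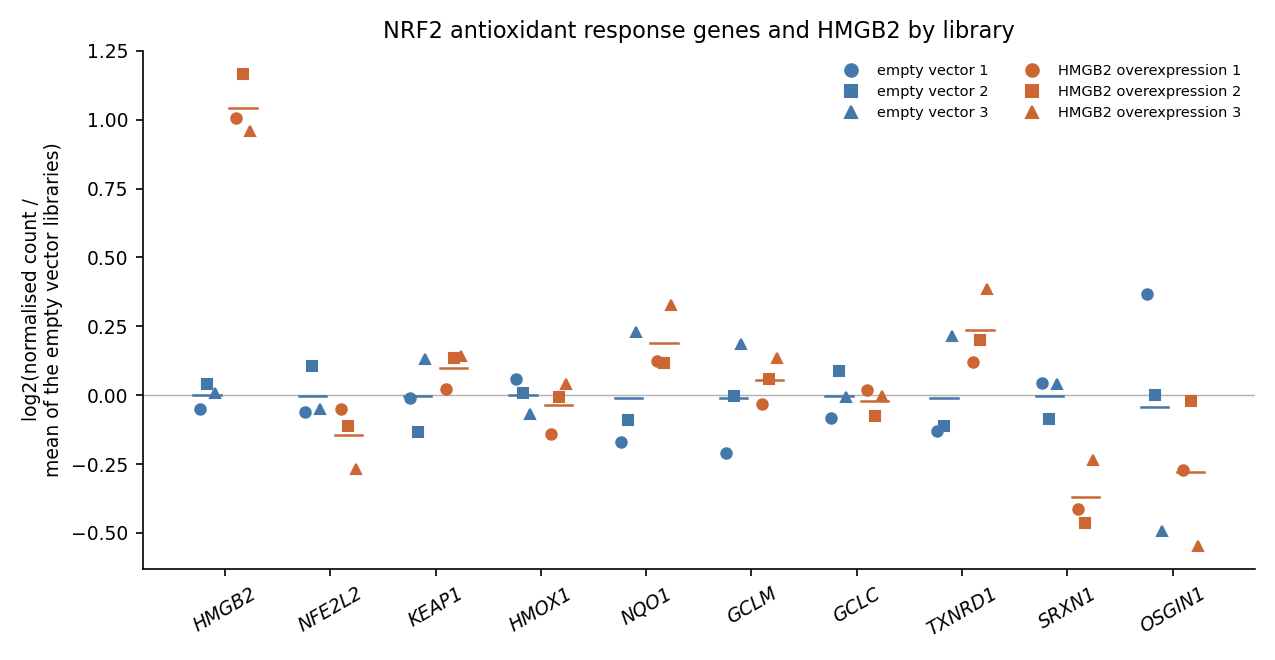
Normalised count of *HMGB2* and the 9 genes in each library, as log2 relative to the mean of the empty vector libraries. Symbols and colours mark replicates and groups, and short lines are means of the log2 values. The 3 overexpressing libraries lie above all controls for *HMGB2* and below all controls for *SRXN1*, and overlap the controls for the other 8 genes.

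*NFE2L2* (ENSG00000116044, chr2:177218667-177392756, minus strand), the gene of NRF2 itself, had normalised counts of 3670, 4112 and 3692 in control libraries and 3691, 3539 and 3178 in overexpressing libraries. The lowest values were in overexpression 2 and 3, and the groups overlapped. The log2 fold change of −0.14 (SE 0.11, 95% interval −0.36 to 0.08) did not pass the test (DESeq2 adjusted p = 0.655). In a fit that corrected for GC content and transcript length and also held a term for the third replicates, it was −0.19 with DESeq2 adjusted p = 0.0144. Among its 50-base words, 36.1% also occur in other genes, most in *HNRNPA3* on the opposite strand.

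*KEAP1* (ENSG00000079999, chr19:10486125-10503558, minus strand), the gene of its inhibitor, had counts of 5254, 4823 and 5792 in controls and 5369, 5811 and 5833 with HMGB2. Empty vector 3 lay among the overexpressing libraries and the groups overlapped. The log2 fold change was 0.10 ± 0.11 (SE, 95% interval −0.12 to 0.32, adjusted p = 0.794 by DESeq2). No alternative called it.

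*TXNRD1* and *NQO1* were the members with the largest positive fold changes. *TXNRD1* (ENSG00000198431, chr12:104215779-104350307, plus strand) had counts of 12341, 12507 and 15689 in controls and 14697, 15519 and 17654 with HMGB2. Empty vector 3 exceeded overexpression 1 and 2, so the groups overlapped, and the log2 fold change was 0.24 ± 0.13 (SE, 95% interval −0.02 to 0.50, adjusted p = 0.429 by DESeq2). For *NQO1*, too, empty vector 3 lay above overexpression 1 and 2.

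*NQO1* (ENSG00000181019, chr16:69706996-69726668, minus strand) had counts of 20350, 21526 and 26846 in controls and 24933, 24832 and 28734 with HMGB2. The log2 fold change of *NQO1* was 0.19 ± 0.14 (SE, 95% interval −0.07 to 0.46, adjusted p = 0.598 by DESeq2). Without empty vector 3, both genes were called higher, *TXNRD1* at 0.36 (DESeq2 adjusted p = 0.0021) and *NQO1* at 0.32 (DESeq2 adjusted p = 0.0055), in a fit that called 17.8% of 16062 genes, 8.31% higher. With all libraries and a term for the third replicates, they were called at 0.24 (DESeq2 adjusted p = 0.000454) and 0.20 (DESeq2 adjusted p = 0.00761), where 17.3% of 15777 genes were called, 8.71% higher. Neither was called when any other library was left out, nor under the GC content and length correction alone (DESeq2 adjusted p = 0.292 and 0.347).

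**Figure D3:**
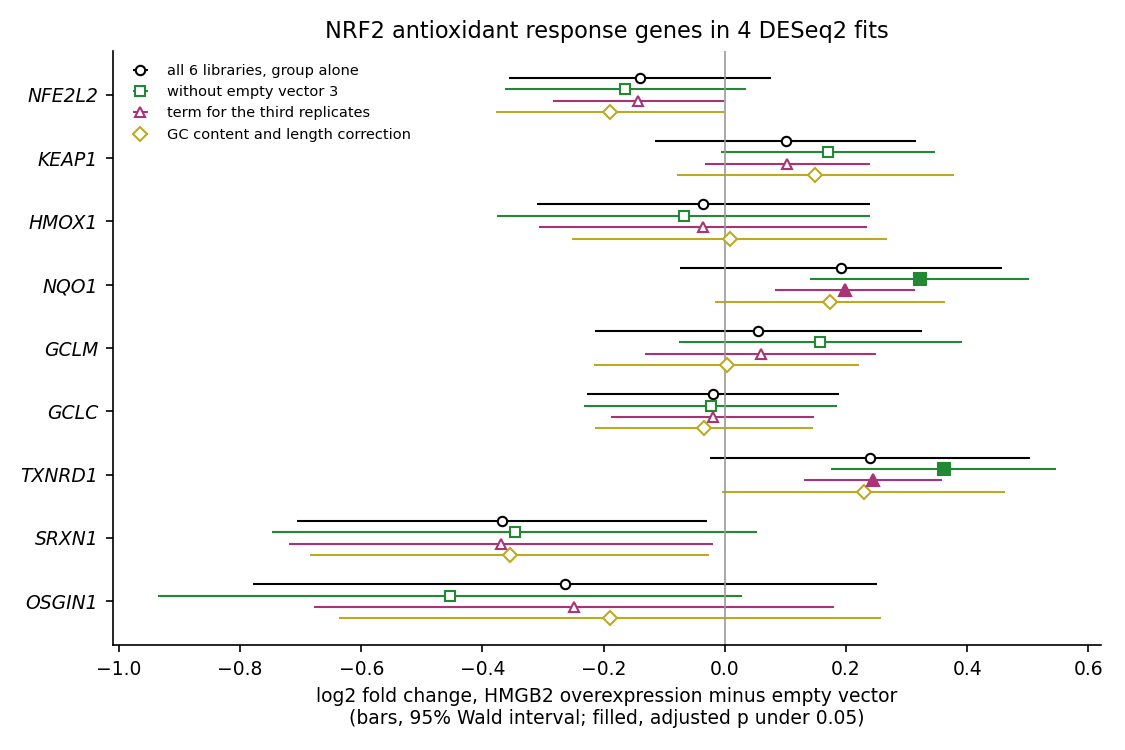
Log2 fold change of each of the 9 genes, HMGB2 overexpression minus empty vector, in 4 DESeq2 fits. Bars are 95% Wald intervals and filled symbols mark an adjusted p under 0.05. The filled symbols are those of *TXNRD1* and *NQO1* in the fit without empty vector 3 and the fit with a term for the third replicates.

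*SRXN1* (ENSG00000271303, chr20:646615-653200, minus strand) was the member with the lowest fold change. Its counts were 218, 199 and 218 in controls and 159, 154 and 180 with HMGB2. Every overexpressing library lay below every control, and *SRXN1* was the only 1 of the 9 members with no overlap, against non-overlap in 21.9% of all genes tested (11.1% higher and 10.7% lower). The log2 fold change was −0.37 (SE 0.17, 95% interval −0.71 to −0.03), which did not pass the test (unadjusted p = 0.0329, DESeq2 adjusted p = 0.279). It was called only by edgeR with a term for the third replicates (adjusted p = 0.0479). Of the words of *SRXN1*, 90.6% also belong to an overlapping gene annotated on the same strand, so assignment of its reads is uncertain.

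The glutathione enzyme showed no called difference in either subunit. *GCLM* (ENSG00000023909, chr1:93885199-93909456, minus strand) had counts of 883, 1020 and 1164 in controls and 1000, 1064 and 1123 with HMGB2. The overexpressing libraries lay within the range of the controls, with a log2 fold change of 0.05 (95% interval −0.22 to 0.32, DESeq2 adjusted p = 0.93). *GCLC* (ENSG00000001084, chr6:53497341-53616970, minus strand) also lay within it, at 1377, 1549 and 1451 in controls and 1479, 1383 and 1456 with HMGB2. Its log2 fold change was −0.02 (95% interval −0.23 to 0.19, DESeq2 adjusted p = 0.973).

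*HMOX1* (ENSG00000100292, chr22:35380361-35394214, plus strand), which breaks down haem to biliverdin, iron and carbon monoxide, had counts of 365, 353 and 334 in controls and 318, 349 and 360 with HMGB2. The groups overlapped and the log2 fold change was −0.04 (95% interval −0.31 to 0.24, DESeq2 adjusted p = 0.961). *OSGIN1* (ENSG00000140961, chr16:83931311-83966332, plus strand) spread most within groups, at 191, 148 and 105 in controls and 123, 146 and 101 with HMGB2. The third replicate was the lowest of both groups, and the log2 fold change of −0.26 had the widest interval, −0.78 to 0.25 (DESeq2 adjusted p = 0.762).

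The count of members called followed the fit, as did the count of all genes. With replicates 1 and 2 alone, 2 members were called higher, where 17.4% of all genes were called (8.01% higher and 9.44% lower). With edgeR and without empty vector 3 there were also 2, at a background of 16.7% (7.49% higher and 9.18% lower). These were again *TXNRD1* and *NQO1*.

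With edgeR and a term for the third replicates, 2 were called higher and 1 lower, at 19.1% of all genes (9.45% higher and 9.69% lower). The GC content and length correction together with that term also gave 2 higher and 1 lower, at 16.6% (8.07% higher and 8.52% lower). In both, the members called higher were *TXNRD1* and *NQO1*, while the member called lower was *SRXN1* in the first and *NFE2L2* in the second. Under the correction alone 0 were called, at 7.5% of all genes (3.3% higher and 4.2% lower), and without overexpression 3 also 0, at 2.3% (0.941% higher and 1.35% lower).

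Several of the 9 genes differed between the third replicate and the first 2 in both groups. In controls, the third library minus the mean of the first 2 was 0.36 for *NQO1*, 0.34 for *TXNRD1* and 0.29 for *GCLM* on the log2 scale. In overexpressing cells the same difference was 0.21, 0.23 and 0.12. *OSGIN1* differed in the opposite direction in both groups, by −0.67 and −0.40, and *NFE2L2* by −0.07 and −0.19. The sign was shared by both groups for 7 of the 9 genes, the exceptions being *HMOX1* and *GCLC*. In controls, this exceeded for *NQO1* and *TXNRD1* the difference between HMGB2 overexpression and control taken from replicates 1 and 2, which was 0.25 and 0.28, and in overexpressing cells it did not.

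Across 16587 genes, the third-library difference had a Spearman correlation of −0.28 with transcript length in controls and −0.24 in overexpressing cells, and of −0.29 and −0.27 with GC content. Genes within a library are not independent, and these values are descriptions. The part of length and GC content in the values of single members was not tested. Comparing only replicates 3, the log2 differences were 0.17 for *TXNRD1*, 0.10 for *NQO1*, −0.27 for *SRXN1* and −0.22 for *NFE2L2*.

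**Figure D4:**
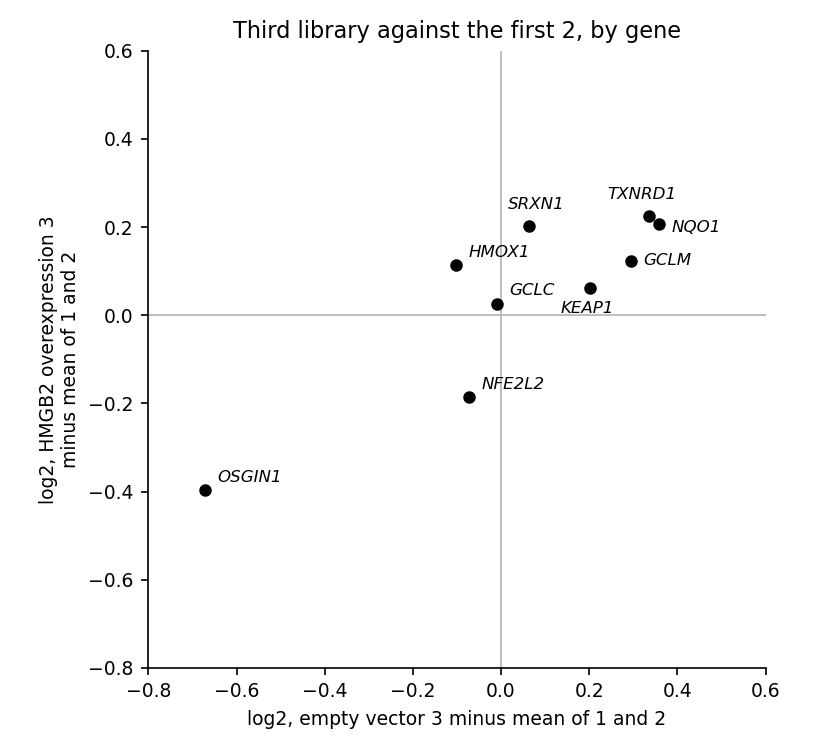
Log2 of the third library minus the mean of the first 2, in empty vector cells on the horizontal axis and HMGB2-overexpressing cells on the vertical axis, 1 point per gene. *NQO1*, *TXNRD1* and *GCLM* lie at the upper right, up to 0.36 and 0.23, and *OSGIN1* lies at the lower left, at −0.67 and −0.40.

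Over the 6 libraries, *NQO1* and *TXNRD1* had the most similar patterns of any pair of members (Pearson r of log2 counts 0.98, n = 6) and *NQO1* and *OSGIN1* the most opposed (r = −0.94). For *NFE2L2*, r was −0.81 to *KEAP1*, −0.80 to *TXNRD1* and −0.70 to *NQO1*, and highest to *GCLC*, at 0.47. Of 13332 genes with a mean count of 50 or more, the 3 most like *NFE2L2* were *LRIG2*, ENSG00000112096 and *SVEP1* (r = 0.99 for each). ENSG00000112096 carries no symbol in the annotation used, and its name in other releases was not looked up. Whether it belongs to the pathway lists below was therefore not settled. The points share libraries and depth, and these values are descriptions of 6 libraries.

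The wider pathway was read from 87 other genes grouped by role, of which 86 had a matching identifier and 85 were tested. HMGB2 overexpression was accompanied by 3 higher and 9 lower calls among them (14.1%), against 4.94% of all genes (2.29% higher and 2.64% lower). These genes were listed with earlier results of these data known, so the shares are descriptions and not a test of the pathway. The median log2 fold change of the 85 genes was −0.02. By edgeR, 1 was higher and 4 lower, against 1.28% and 1.52% of all genes. Without empty vector 3 the counts were 21 higher and 15 lower, against 8.31% and 9.46% of all genes, and with a term for the third replicates 20 and 17, against 8.71% and 8.61%. The 12 genes called with all libraries are given next by role.

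**Figure D5:**
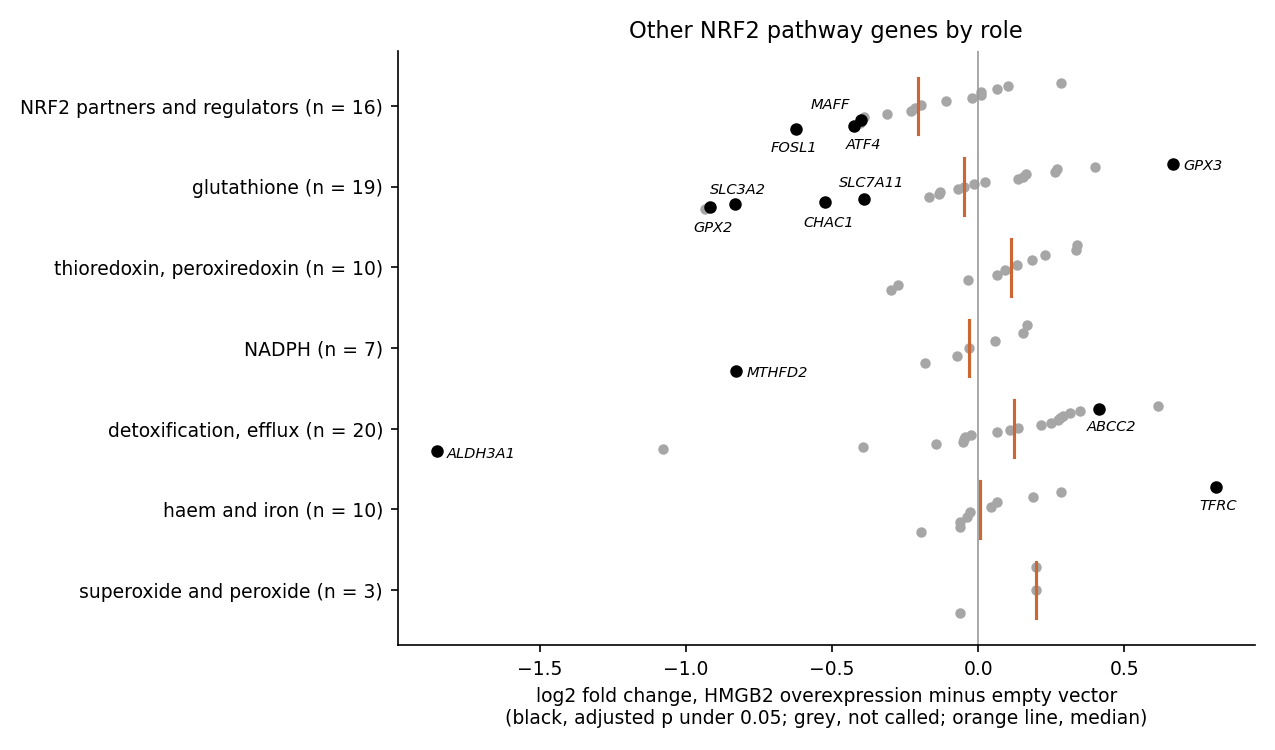
Log2 fold change of 85 other NRF2 pathway genes, HMGB2 overexpression minus empty vector, grouped by role, 1 point per gene. Black points passed an adjusted p under 0.05 and are named, grey points did not, and orange lines are medians. Of the black points, 9 lie to the left of 0, from −0.39 to −1.85, and 3 to the right.

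Among 16 partners and regulators of NRF2, 3 fell and none rose (18.8% called), against 4.94% of all genes. The median log2 fold change of the 16 was −0.21. *FOSL1*, an AP-1 subunit, had counts of 21388, 22011 and 15025 in controls and 13109, 13506 and 11313 with HMGB2, a log2 fold change of −0.62 ± 0.16 (SE, adjusted p = 0.0042 by DESeq2). *ATF4*, the stress-response transcription factor that partners NRF2 at some targets, went from 32208, 29993 and 31058 to 23320, 24068 and 22124 (log2 fold change −0.42, SE 0.09, DESeq2 adjusted p = 0.000194). *MAFF*, a small MAF protein that can pair with NRF2, went from 2187, 1977 and 1800 to 1502, 1497 and 1518 (log2 fold change −0.40, SE 0.11, DESeq2 adjusted p = 0.0135). All 3 were lower in every overexpressing library than in any control, as were 10.7% of all genes tested. Over the fits that left out 1 library, *ATF4* kept its call in 4 of 6, losing it without empty vector 1 or overexpression 1 (highest DESeq2 adjusted p = 0.0579). *FOSL1* kept it in 3, losing it without empty vector 1, empty vector 2 or overexpression 3 (highest 0.0904), and *MAFF* kept it only without empty vector 3 (highest 0.333 among the other fits). By edgeR with all libraries, *ATF4* was called (adjusted p = 0.0287), and *FOSL1* and *MAFF* were not (adjusted p = 0.0655 and 0.0697).

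The other small MAF genes did not pass the test with all libraries. *MAFG* was at −0.21 (DESeq2 adjusted p = 0.351) and *MAFK* at −0.39 (DESeq2 adjusted p = 0.176), and both were called lower with a term for the third replicates (DESeq2 adjusted p = 0.0196 and 7.63e-06). *MAFK* was also called lower without empty vector 3, and *MAFG* was not (DESeq2 adjusted p = 4.42e-05 and 0.0722). *SQSTM1*, whose protein p62 can sequester KEAP1, had counts of 23425, 21684 and 24582 in controls and 19086, 19488 and 20809 with HMGB2. Every overexpressing library lay below every control, as in 10.7% of all genes tested. The log2 fold change of −0.23 was called with that term but not without empty vector 3 (DESeq2 adjusted p = 0.198 with all libraries, 0.000794 with the term and 0.108 without empty vector 3). The column of counts kept 58.1% of its stranded reads. *BACH1*, a repressor at antioxidant response elements, was at −0.02 (DESeq2 adjusted p = 0.975) and *CUL3*, the scaffold of the KEAP1 ligase, at 0.0083 (DESeq2 adjusted p = 0.991).

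*RBX1*, the RING subunit of that ligase, was at 0.28 (DESeq2 adjusted p = 0.532). *GSK3B*, a kinase that marks NRF2 for a second ligase, was at −0.31 (DESeq2 adjusted p = 0.323), and the NRF2 relative *NFE2L1* at −0.41 (DESeq2 adjusted p = 0.399). Without empty vector 3, *RBX1* was called higher and *GSK3B* and *NFE2L1* lower, at 0.50, −0.45 and −0.65.

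Among 19 genes of glutathione metabolism, 4 fell and 1 rose (26.3% called), against 4.94% of all genes, with a median of −0.05. By edgeR, 2 fell and 0 rose, against 2.81% of all genes. *SLC3A2*, the heavy chain of the cystine transporter, had counts of 43734, 41043 and 37327 in controls and 24849, 23752 and 19964 with HMGB2. Its log2 fold change was −0.83 ± 0.12 (SE, adjusted p = 3.7e-09 by DESeq2), and it lay between −0.90 and −0.74 and was called with any 1 library left out. *SLC7A11*, the light chain that carries cystine, had 5186, 5540 and 5200 in controls and 4594, 3901 and 3643 with HMGB2. It fell by 0.39 on the log2 scale (SE 0.12, DESeq2 adjusted p = 0.027), and kept its call without empty vector 3 or overexpression 1 but not without any of the other 4 libraries (highest DESeq2 adjusted p = 0.329). By edgeR it was not called (adjusted p = 0.0931).

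*CHAC1*, an enzyme that degrades glutathione, had counts of 4445, 4320 and 4696 in controls and 3257, 3246 and 2847 with HMGB2. Its log2 fold change was −0.53 ± 0.11 (SE, adjusted p = 5.48e-05 by DESeq2), and it was called with any 1 library left out. As background, *SLC3A2*, *SLC7A11* and *CHAC1* are also known targets of ATF4. The 2 changed glutathione peroxidases moved in opposite directions.

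*GPX2*, the gastrointestinal enzyme, had low counts of 73.7, 76.2 and 55.8 in controls and 33.6, 38.4 and 37.1 with HMGB2 (log2 fold change −0.92, SE 0.30, DESeq2 adjusted p = 0.0471). *GPX3*, the secreted enzyme, had 189, 208 and 257 in controls and 303, 346 and 389 with HMGB2 (log2 fold change 0.67, SE 0.18, DESeq2 adjusted p = 0.0088). The groups of both genes were separate, as in 21.9% of all genes tested, but edgeR called neither (adjusted p = 0.0593 and 0.0609). With 1 library left out, *GPX2* was called only without empty vector 3 and *GPX3* only without empty vector 3 or overexpression 1 (highest DESeq2 adjusted p = 0.444 and 0.207). *MGST1*, *MGST3*, *GLRX* and *GSTM3*, which use or handle glutathione, were between 0.17 and 0.40 and were not called. Without empty vector 3 all 4 were called higher, and with a term for the third replicates all but *GSTM3*.

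Of the 12 changed pathway genes, the promoter table held 13 windows for 9. The core was found in 4 of these windows (30.8%), against 13.4% of all windows. Those 4 windows belong to *MAFF*, *SLC3A2*, *GPX2* and *MTHFD2*. The windows of *ATF4* and *CHAC1*, which also fell, held no match, nor did those of *GPX3*, *ABCC2* and *TFRC*, which rose. The part of the core in these differences was not tested. The match of *SLC3A2* also contains TGACTCA, the consensus of AP-1, so both motifs overlap there. The stretches around the matches are shown because these genes fell.

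SLC3A2 (chr11:62881636-62881696, plus strand): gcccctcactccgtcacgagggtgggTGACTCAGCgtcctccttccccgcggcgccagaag
MAFF (chr22:38201846-38201906, plus strand): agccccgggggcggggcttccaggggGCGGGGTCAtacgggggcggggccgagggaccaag
GPX2 (chr14:64942833-64942893, minus strand): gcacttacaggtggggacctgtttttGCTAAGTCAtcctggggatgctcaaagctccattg
MTHFD2 (chr2:74198595-74198655, plus strand): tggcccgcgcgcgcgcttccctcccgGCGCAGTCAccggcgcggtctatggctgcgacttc

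None of the 10 thioredoxin and peroxiredoxin genes was called by DESeq2 or by edgeR with all libraries. At an unadjusted p under 0.05 there were 4 by DESeq2, against 14.3% of all genes. By edgeR there were 2, against 2771 of all 16754 genes. Their median log2 fold change was 0.11. *PRDX1*, a peroxiredoxin and the highest of them by count, had 19869, 18826 and 27056 in controls and 25510, 26205 and 31353 with HMGB2, and empty vector 3 lay among the overexpressing libraries. *TXN*, the substrate of the TXNRD1 enzyme, had 12707, 13585 and 18670 in controls and 16805, 15535 and 20314 with HMGB2, in the same arrangement. *TXNIP*, the inhibitor of thioredoxin, had 15410, 14814 and 14610 in controls and 13707, 11716 and 11043 with HMGB2.

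With all libraries, the log2 fold changes of *PRDX1*, *TXN* and *TXNIP* were 0.34, 0.23 and −0.30 (DESeq2 adjusted p = 0.288, 0.625 and 0.122). Without empty vector 3, *TXN*, *PRDX1*, *PRDX3* and *PRDX4* were called higher, at 0.42, 0.52, 0.43 and 0.50. *TXNIP* and *TXNRD2*, the mitochondrial reductase, were called lower, at −0.31 and −0.28. The same 6 genes were called in the same directions with a term for the third replicates. The column of counts kept 57.9% of the stranded reads of *TXNRD2*.

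Of 7 genes that supply NADPH, 1 fell and none rose (14.3% called), against 4.94% of all genes. *MTHFD2*, a mitochondrial enzyme of folate metabolism, had counts of 26471, 26435 and 29851 in controls and 17677, 14990 and 13891 with HMGB2. The log2 fold change was −0.83 ± 0.12 (SE, adjusted p = 6.75e-09 by DESeq2), it was called with any 1 library left out, and it too is a known target of ATF4. The column of counts kept 57.3% of its stranded reads, and the sum of the stranded columns gave −0.86.

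The pentose phosphate gene *TKT*, the highest of the list by count, was at −0.07 (DESeq2 adjusted p = 0.833). *PGD*, *ME1* and *IDH1*, whose enzymes make NADPH, were at 0.17, 0.15 and −0.18 and were not called. With a term for the third replicates, *PGD* was called higher and *IDH1* lower (DESeq2 adjusted p = 0.034 and 0.0156), and *ME1* was called higher without empty vector 3 (DESeq2 adjusted p = 0.0452).

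Among 20 genes of detoxification and efflux, 1 rose and 1 fell, with a median of 0.12. *ABCC2*, an efflux pump for glutathione conjugates, had counts of 771, 921 and 942 in controls and 1120, 1127 and 1263 with HMGB2 (log2 fold change 0.41, SE 0.13, DESeq2 adjusted p = 0.034). *ALDH3A1*, an aldehyde dehydrogenase, had low counts of 62.6, 49.6 and 21.5 in controls and 6.36, 9.85 and 21.4 with HMGB2 (log2 fold change −1.85, SE 0.56, DESeq2 adjusted p = 0.0237). Empty vector 3 and overexpression 3 nearly met for *ALDH3A1*. With 1 library left out, it was called only without empty vector 3 or overexpression 3, and *ABCC2* only without empty vector 3 (highest DESeq2 adjusted p = 0.419 and 0.458). By edgeR, neither was called.

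The aldo-keto reductases, much used as markers of NRF2 activity, were mixed. *AKR1C3* had counts of 576, 554 and 952 in controls and 914, 1001 and 1271 with HMGB2, a log2 fold change of 0.61 ± 0.22 (SE, adjusted p = 0.0862 by DESeq2). It was called without empty vector 3 (0.91, DESeq2 adjusted p = 3.86e-08) and under the GC content and length correction (DESeq2 adjusted p = 0.00698). *AKR1C2* and *AKR1B1* were at 0.35 and 0.28 (DESeq2 adjusted p = 0.185 and 0.266), and both were called higher without empty vector 3 (DESeq2 adjusted p = 0.00715 and 0.000929) and with a term for the third replicates (DESeq2 adjusted p = 0.00265 and 6.5e-05). *AKR1C1* was at −0.39 (DESeq2 adjusted p = 0.421). It was called lower in replicates 1 and 2 alone, at −0.69 (DESeq2 adjusted p = 0.0141), where 17.4% of all genes were called. Of the 50-base words of *AKR1C2*, 36.0% also occur in other genes, most in *AKR1C1*. *AKR1B10*, at 64.7, 30.1 and 9.66 in controls and 12.7, 17.7 and 19.1 with HMGB2, overlapped between groups (log2 fold change −1.08, DESeq2 adjusted p = 0.436). It was called lower without empty vector 3, at −1.52 (DESeq2 adjusted p = 0.0254), and with the term it was not (DESeq2 adjusted p = 0.338). The carbonyl reductase *CBR1* and the pump *ABCC4* were at 0.25 and 0.31 and were not called, and both were called higher without empty vector 3 and with the term. For *CBR1*, 36.2% of the stranded reads were kept.

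Among 10 tested genes of haem and iron handling, 1 rose and none fell, with a median of 0.0081. *TFRC*, the transferrin receptor that brings iron into cells, had counts of 1885, 1797 and 1779 in controls and 2867, 3126 and 3609 with HMGB2. The log2 fold change was 0.81 ± 0.12 (SE, adjusted p = 4.2e-09 by DESeq2), and it was called by edgeR (adjusted p = 0.00701) and with any 1 library left out. *TFRC* is known mainly as a target of iron-regulatory proteins. *FTL*, the ferritin light chain and an NRF2 target, had 33193, 34621 and 41894 in controls and 42958, 41579 and 48960 with HMGB2, overlapping between groups (log2 fold change 0.28, DESeq2 adjusted p = 0.25). It was called higher without empty vector 3 (0.39, DESeq2 adjusted p = 0.00043).

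Of 3 tested genes against superoxide and peroxide, none was called by DESeq2 or edgeR. At an unadjusted p under 0.05 there were 0 by either, against 14.3% of all genes by DESeq2 and 2771 of 16754 by edgeR. *SOD1*, the cytosolic superoxide dismutase, was at 0.20 (DESeq2 adjusted p = 0.647) and catalase, *CAT*, at 0.20 (DESeq2 adjusted p = 0.624). Both were called higher without empty vector 3, at 0.34 and 0.37, and with a term for the third replicates.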

How the data were processed

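RNA was sequenced in 6 libraries of A375 cells, 3 with an empty vector and 3 with HMGB2 overexpression, grouped by their titles. Per the labels, the authors used bcl2fastq 2.20, FastQC, Trimmomatic and STAR on GRCh38 (the aligner version and annotation release were not given in the sources used here). The deposited values are raw read counts per gene for 58302 Ensembl identifiers, of which 57532 matched GENCODE 44. The column for either strand was used, in which a read between overlapping genes is set aside as ambiguous (10.7% to 11.4% of reads). Summary lines, multimapped reads among them (2.58% to 10.6%), stayed out of library sizes. Unmapped reads made up 1.38% to 1.68%.

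The tool was that of the study, DESeq2 (version 1.42.0, R 4.3.3), with default parameters, the Wald test on group and Benjamini-Hochberg adjustment over all genes tested. Log2 fold changes are unshrunken, with 95% Wald intervals. A gene was called at an adjusted p under 0.05. Normalised counts were scaled by the size factors of DESeq2. Correlations use log2(normalised count + 1).

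The members and lists were chosen with earlier results of these data known. The genes named were *HMGB2*, the 9 members, every other pathway gene called with all libraries (or without empty vector 3 or with a term for the third replicates, in the same direction), the highest by count of each role, and *BACH1*, *MAFG*, *SQSTM1*, *CUL3*, *SLC7A11*, *TXN* and *TXNIP*, with the 3 genes most like *NFE2L2* in pattern. *AKR1C1* was named beside its relative *AKR1C2*. *SOD2* was sought under ENSG00000291237, its identifier in the annotation used, which had no match among the identifiers counted. Whether *SOD2* was counted under another identifier was not tested, so its absence from the data is not shown. *ABCB6* received no adjusted p. Alternatives were the quasi-likelihood test of edgeR 4.0.16, TMM factors, a filter of 10 counts in 3 libraries, no independent filter, a replicate block, stranded columns added together, shrunken fold changes, leaving out each library, a term for the third replicates and replicates 1 and 2 alone. Combinations of edgeR with these were added after seeing the data. So was a correction for GC content and length, both of the longest transcript of each gene (splines with 5 degrees of freedom). Both tests were tested on simulated data.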

Additional observations from a re-analysis of the deposited data

Results flagged for a closer look

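For 2 pathway genes, under 25% of the reads in the stranded columns were kept in the column used. *CBR3*, a carbonyl reductase, kept 16.3% of its stranded reads, which numbered 673 to 890 per library. *FTH1*, the ferritin heavy chain and an NRF2 target, kept 22.1% of 46526 to 61388. On the sum of the stranded columns their log2 fold changes were 0.19 (DESeq2 adjusted p = 0.687) and 0.12 (DESeq2 adjusted p = 0.634), and neither was called.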

How the results depend on the processing

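The *HMGB2* difference itself was called in all alternatives run. For all genes called higher and lower (432 and 498), edgeR gave 215 and 255, the replicate block 886 and 940, the term for the third replicates 1374 and 1359, replicates 1 and 2 alone 1203 and 1418, edgeR without empty vector 3 1292 and 1583, edgeR with the term 1584 and 1623, and the GC content and length correction with the term 1421 and 1500. Leaving out 1 library gave 155 to 1334 higher and 208 to 1520 lower, the highest without empty vector 3.

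Of the 9 members, 2 were called higher (*TXNRD1* and *NQO1*) with the replicate block, the term, replicates 1 and 2 alone, edgeR without empty vector 3, edgeR with the term, and the correction with the term. With 1 library left out, 0 to 2 were called higher. A member called lower appeared in 2 alternatives, 1 each: *SRXN1* by edgeR with the term and *NFE2L2* under the correction with the term.

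For the other pathway genes (3 higher, 9 lower), edgeR gave 1 and 4, the block 16 and 14, the term 20 and 17, replicates 1 and 2 alone 19 and 16, edgeR without empty vector 3 20 and 16, edgeR with the term 20 and 17, the correction with the term 20 and 16, and leaving out 1 library 1 to 21 and 3 to 15. Deviations of same-numbered libraries correlated at 0.09, 0.14 and 0.35, not all over 0.1, and empty vector 1 correlated best with overexpression 2, so the numbers were not taken to pair the samples.

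Signs changed for 5 named genes with fold changes near 0, none of them called. *HMOX1* ranged from −0.0735 to 0.016 with 1 library left out, and was at 0.0083 under the correction and 0.0073 with the term added. *GCLM* ranged from −0.0427 to 0.1578 and *GCLC* from −0.0625 to 0.0235. *BACH1* ranged from −0.0913 to 0.0705, with 0.0295 in replicates 1 and 2 alone and 0.0691 by edgeR without empty vector 3. *CUL3* ranged from −0.0874 to 0.0734, with −0.0041 on the stranded sum, −0.048 in replicates 1 and 2, −0.0892 by edgeR without empty vector 3, −0.064 under the correction and −0.0595 with the term added. The causes were not tested. Low counts limit what can be said of *GPX2*, *ALDH3A1* and *AKR1B10*, whose mean normalised counts were 52.5, 28.6 and 25.7.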
